A study of Homo sapiens with 5 samples.

Results

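MHC class I antigen presentation was examined in MCF10A SAM cells with raised JUN. The genes were HLA-B, HLA-C, HLA-E, B2M, TAP1, TAP2, TAPBP, PSMB8 and PSMB9. They were found by matching the Entrez identifiers of the count table to NCBI gene names, which gave all 9 of them among 23459 genes, and all 9 had enough counts to be tested. MCF10A is an immortalised human mammary epithelial line. The SAM cells used here are clones of it, picked after infection with dCas9-VP64 and MCP-p65-HSF1, which form an activator that a guide RNA brings to a promoter. The control libraries came from SAM cells infected with a non-targeting guide (NTC, 3 libraries) and the others from SAM cells infected with a guide against the JUN promoter (sgJUN#1, 2 libraries). Both groups thus carried the activator and grew in the same medium with horse serum, insulin, hydrocortisone, cholera toxin and EGF. Messenger RNA was counted by 3′ end sequencing, with 2455627 to 4988062 counts per library. The study calls the replicates of this comparison biological but counts fewer than the 3 NTC libraries of the labels, all of which were used here. Neither source says that they were separate cultures, so p-values measure the spread between these libraries, which may be technical.

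MHC class I molecules carry short peptides from inside the cell to its surface, where CD8 T cells and natural killer cells read them. Proteasomes cut the peptides, and in immunoproteasomes the subunits PSMB8 and PSMB9 take the place of the constitutive catalytic subunits. The TAP1/TAP2 transporter pumps peptides into the endoplasmic reticulum. There tapasin (TAPBP) holds TAP beside empty class I molecules, each made of a polymorphic heavy chain and the invariant light chain B2M. Interferons raise these genes together, in part through IRF1 and NLRC5. Epithelial cells express them at a basal level without interferon. B2M was also the reference gene of the qRT-PCR assays in the study that made these libraries, so its level is of practical interest.

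The promoter sequence of the genes is shown for the heavy chains HLA-B and HLA-C, whose values differed from each other below, for B2M and TAP2, which together with HLA-B were higher in both sgJUN#1 libraries, and for TAP1, which was not. Each line gives the 250 bases before the RefSeq start of the gene on GRCh38.p14, on the strand of the gene. Capitals mark letters that match an interferon-response (IRF) element, GAAA repeated after a gap of 2 bases, or a kappaB motif, GGGNNTTCC, on either strand. The run at the end of the B2M line is the start of a match that goes on past the gene start. The HLA-B window is chr6:31357180-31357429, the HLA-C window chr6:31272093-31272342, the B2M window chr15:44711267-44711516, the TAP2 window chr6:32838740-32838989 and the TAP1 window chr6:32853705-32853954. B2M lies on the plus strand and the other 4 on the minus strand.
HLA-B: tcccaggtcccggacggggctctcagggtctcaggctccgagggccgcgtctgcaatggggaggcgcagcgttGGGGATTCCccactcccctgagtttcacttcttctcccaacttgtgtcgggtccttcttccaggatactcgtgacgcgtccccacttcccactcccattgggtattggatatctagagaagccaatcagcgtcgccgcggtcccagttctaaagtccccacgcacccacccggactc
HLA-C: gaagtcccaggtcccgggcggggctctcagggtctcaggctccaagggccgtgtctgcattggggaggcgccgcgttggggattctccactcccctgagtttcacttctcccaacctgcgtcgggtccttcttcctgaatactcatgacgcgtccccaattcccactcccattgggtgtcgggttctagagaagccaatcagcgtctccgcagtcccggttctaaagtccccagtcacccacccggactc
B2M: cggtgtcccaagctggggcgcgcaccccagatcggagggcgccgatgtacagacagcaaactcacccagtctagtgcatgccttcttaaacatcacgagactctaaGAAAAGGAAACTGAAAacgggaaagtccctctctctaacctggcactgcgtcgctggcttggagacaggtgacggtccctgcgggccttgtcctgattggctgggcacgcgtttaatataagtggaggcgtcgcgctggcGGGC
TAP2: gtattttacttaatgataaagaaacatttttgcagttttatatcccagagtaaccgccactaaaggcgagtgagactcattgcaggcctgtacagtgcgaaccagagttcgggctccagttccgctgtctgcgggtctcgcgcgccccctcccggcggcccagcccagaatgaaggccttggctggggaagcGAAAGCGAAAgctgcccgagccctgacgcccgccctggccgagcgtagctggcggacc
TAP1: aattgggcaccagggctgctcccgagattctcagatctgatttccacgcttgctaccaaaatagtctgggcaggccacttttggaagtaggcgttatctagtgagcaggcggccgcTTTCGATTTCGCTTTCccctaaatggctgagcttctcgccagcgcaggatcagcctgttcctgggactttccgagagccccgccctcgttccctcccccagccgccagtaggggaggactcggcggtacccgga

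Motifs were counted over the whole RefSeq window of 300 bases, which adds 50 bases after the start, and 8 of the 9 genes had a window. HLA-E had no entry. PSMB8 and TAP1 had more than 1 window each, 10 windows in all for the 8 genes. A gene was counted if any of its windows matched, whereas the shares given beside it are of single windows. The IRF element was found for 5 of the 8 genes (B2M, TAP1, TAP2, TAPBP and PSMB8) and in 3.13% of the 22925 promoter windows of genes in the table. In B2M, TAP1 and TAPBP it occurred as overlapping matches 6 bases apart. The kappaB letters occurred in 4 of the 8 (HLA-B, B2M, TAPBP and PSMB8) against 7.27% of all windows. Longer forms of the kappaB motif were not searched. One such form, gggactttcc, is in the TAP1 line, and its reverse complement, ggaaagtccc, is in the B2M line. HLA-B and HLA-C held the CCAAT box, which binds NF-Y, on either strand at 3 and 4 places, and it occurred in 5 of the 8 genes against 34.7% of all windows. The AP-1 motif TGANTCA and the related CRE, TGACGTCA, to which JUN dimers bind, matched in 0 of the 8 genes, against 6.32% and 2.26% of all windows. The TEAD motif GGAATG matched in PSMB8 and B2M (12.3% of all windows). These are exact letter matches in short windows, and sites farther away were not searched. Sites with other letters were not counted, so a gene without a match may still hold one. The HLA-B and HLA-C lines both hold tttcacttct, which is close to the IRF element on the other strand.

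JUN was checked first. NTC replicates 1, 2 and 3 had 25.03, 36.2 and 9.32 CPM (library-size-scaled counts, with TMM scaling) and sgJUN#1 replicates 1 and 2 had 172 and 265 CPM. No NTC library reached the level of either sgJUN#1 library, and JUN was higher by 3.25 (SE 0.484) on the log2 scale. With edgeR's quasi-likelihood test the adjusted p-value was 0.0733, which did not pass 0.05. Leaving out NTC replicate 2 gave 0.0144 and leaving out NTC replicate 3 gave 0.00121, whereas the other 3 libraries left out in turn gave 0.175 to 0.322. With all libraries it was 0.218 with no filter, and DESeq2 gave an adjusted p-value of 4.08e-11. The epithelial markers KRT5, KRT18, EPCAM and CDH1 were present in every library, whereas KRT14 held only 4 to 13 counts. Of the immune markers, CD3E had no count in any library, MS4A1 at most 1 and PTPRC at most 10. The 6 immune markers summed to 10.99 to 29.7 CPM in NTC and 18.0 to 22.2 CPM in sgJUN#1. The 7 epithelial ones summed to 252 to 592 and 304 to 583 CPM. For the 4 fibroblast markers the sums were 24.5 to 90.3 CPM in NTC and 29.7 to 50.8 CPM in sgJUN#1. Most of that was DCN, which overlapped between the groups (22.8 to 87.8 against 27.2 and 49.0 CPM). The 3 endothelial markers summed to 7.70 to 10.99 CPM in NTC and 7.51 to 9.91 CPM in sgJUN#1. Of the epithelial markers, EPCAM (7.33 to 23.7 against 56.5 and 144 CPM) and KRT17 (0 to 5.99 against 16.3 and 7.87 CPM) were above the NTC range in both sgJUN#1 libraries, and KRT14 (2.20 to 3.26 against 0.826 and 1.79 CPM) was below it. Of the immune markers, CD68 was above it (3.11 to 8.14 against 11.4 and 16.1 CPM), while CD14 overlapped (1.63 to 23.7 against 6.19 and 4.29 CPM). None of these 5 passed the edgeR threshold, with adjusted p-values from 0.210 to 0.773. Their part in the values below was not tested. In these bulk libraries fewer cells that express a gene and less of its RNA per cell cannot be told apart.

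None of the 9 class I presentation genes passed the edgeR threshold, an adjusted p-value under 0.05 over all 13616 tested genes, which 0.206% of tested genes passed (0.0808% as higher and 0.125% as lower in sgJUN#1). The fitted log2 fold changes of sgJUN#1 over NTC ran from -0.0062 for TAP1 to 0.69 for HLA-B and had a median of 0.25. The median over all tested genes was -0.0082. In 8 of the 9 genes the fitted value was above 0, against 49% of all tested genes. Without sgJUN#1 replicate 2 the median of the 9 was 0.088, and without sgJUN#1 replicate 1 it was 0.40. At an unadjusted edgeR p-value under 0.05, 2 genes were higher in sgJUN#1 (HLA-B and TAP2) and 0 lower, where 8.38% of all tested genes passed, 4.02% as higher and 4.36% as lower. DESeq2, which called 1.05% of tested genes, and limma-voom, which called 0.14%, also called 0 of the 9.

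**Figure D1:**
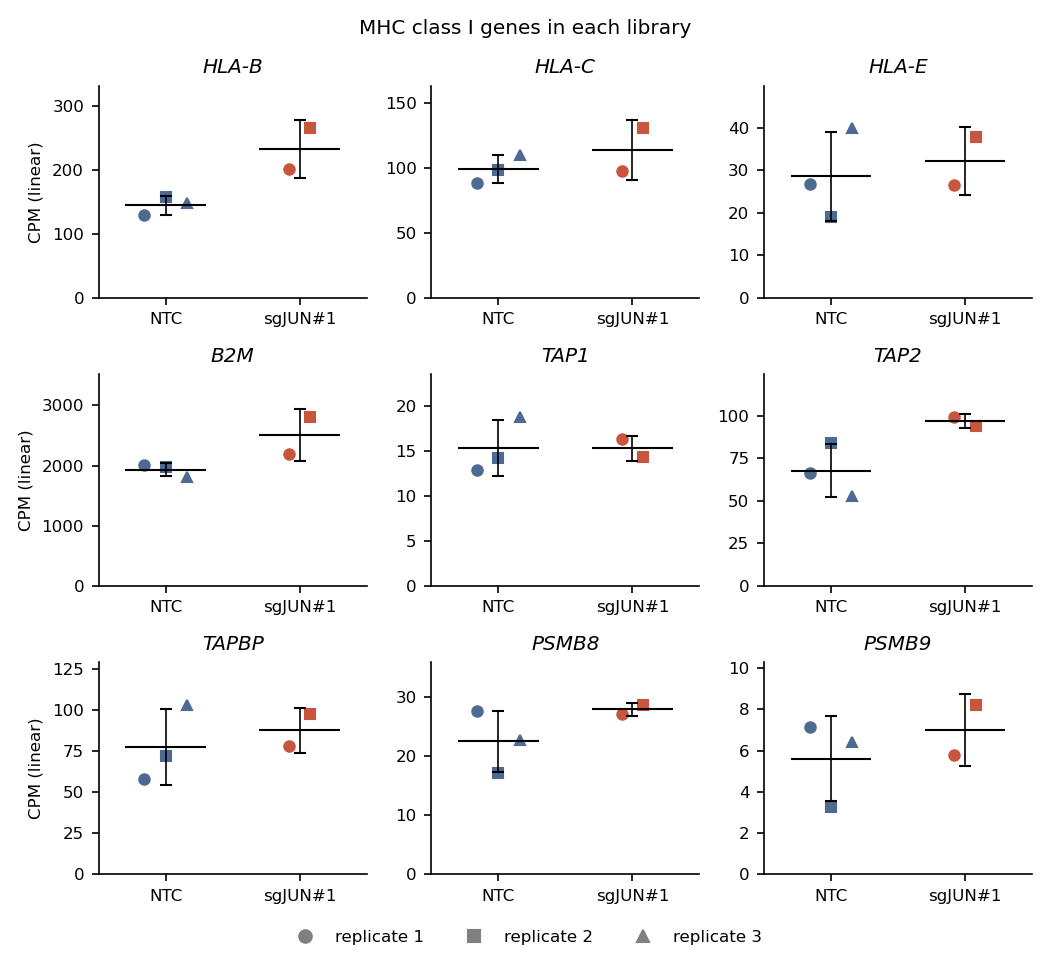
CPM of the 9 class I presentation genes in each library (linear axes from 0), with NTC in blue and sgJUN#1 in red, one symbol per replicate number, and a line and bar for the mean and SD of each group. HLA-B, B2M and TAP2 are the genes in which both sgJUN#1 libraries lie above all 3 NTC libraries.

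Among the heavy chains, HLA-B differed most. HLA-B (Entrez 3106, GRCh37 chr6:31321649-31334844, minus strand) is a classical class I heavy chain that presents peptides to CD8 T cells. Its levels in NTC replicates 1 to 3 were 128, 157 and 148 CPM, against 201 and 265 CPM in sgJUN#1. The groups did not overlap, and the gap between the sgJUN#1 libraries was wider than the range of the NTC libraries. The group means were 145 ± 14.7 CPM (SD, n = 3) and 233 ± 45.4 CPM (SD, n = 2). The log2 fold change was 0.69 (SE 0.205), a fold of 1.61 with a 95% interval from 1.17 to 2.21 that is not corrected for the number of genes tested. In edgeR the unadjusted p-value was 0.0081 and the adjusted one 0.352, which put HLA-B at rank 312 of the tested genes by p-value. The log2 fold change was 0.48 without sgJUN#1 replicate 2 and 0.87 without sgJUN#1 replicate 1. A transcribed pseudogene, DHFRP2, is annotated on the same strand over the GENCODE span of HLA-B and was not matched in the table. That span begins upstream of the RefSeq start of HLA-B, and which gene model was counted is not stated.

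HLA-C (Entrez 3107, chr6:31236526-31239907, minus strand), also a classical heavy chain and a main ligand of natural killer cell receptors, overlapped between the groups. It had 88.3, 98.5 and 110 CPM in NTC and 97.8 and 131 CPM in sgJUN#1. The fitted log2 difference of HLA-C was 0.20 (SE 0.211), with an interval from -0.27 to 0.68 and an edgeR adjusted p-value of 0.842. Without sgJUN#1 replicate 2 it was -0.0089. HLA-E (Entrez 3133, chr6:30457286-30461971, plus strand) presents leader peptides of other class I chains to natural killer cells. Its NTC libraries at 26.7, 19.1 and 39.9 CPM enclosed both sgJUN#1 libraries at 26.6 and 37.9 CPM. The fitted difference of HLA-E was 0.15 (SE 0.321), with an interval from -0.57 to 0.87, and it was below 0 without NTC replicate 2 (-0.061) or without sgJUN#1 replicate 2 (-0.11).

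The ratio of HLA-B to HLA-C counts within a library does not depend on scaling between libraries. It was 1.45, 1.60 and 1.35 in NTC replicates 1 to 3 and 2.05 and 2.03 in sgJUN#1. Both sgJUN#1 ratios lay above all NTC ratios, and they differed by less from each other than the NTC ratios did. On the log2 scale the groups were 0.48 apart. HLA-B against B2M gave 0.0639 to 0.0823 in NTC and 0.0914 to 0.0941 in sgJUN#1, also without overlap. HLA-C against B2M overlapped, at 0.0439 to 0.0610 in NTC and 0.0446 and 0.0464 in sgJUN#1. These ratios were chosen after their values were seen and were not tested. Heavy chain genes are polymorphic and alike in sequence, so a read can be placed in the wrong gene where the alleles of the cells differ from the reference.

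B2M (Entrez 567, chr15:45003556-45011049, plus strand), the shared light chain, is the only one of the 9 outside chromosome 6. NTC replicates 1 to 3 had 2010, 1976 and 1804 CPM of B2M, against 2195 and 2814 CPM in sgJUN#1. Both sgJUN#1 libraries were higher than every NTC library, replicate 1 by a small margin. The means were 1930 ± 111 CPM (SD, n = 3) and 2505 ± 438 CPM (SD, n = 2). B2M had a log2 fold change of 0.38 (SE 0.183), a fold of 1.30 with a 95% interval from 0.977 to 1.72, and an edgeR adjusted p-value of 0.638. Its standard error was among the smallest, with 1.07% of tested genes below it. Without sgJUN#1 replicate 2 the log2 fold change was 0.19.

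The transporter subunits were fitted separately and were not tested against each other. TAP2 (Entrez 6891, chr6:32789610-32806516, minus strand) had 66.3, 83.8 and 52.8 CPM in NTC and 99.5 and 93.7 CPM in sgJUN#1. The groups did not overlap. On the log2 scale TAP2 differed by 0.52 (SE 0.228), a fold of 1.44 with a 95% interval from 1.01 to 2.05, and the edgeR unadjusted and adjusted p-values were 0.0469 and 0.590. It ran from 0.37 without NTC replicate 3 to 0.70 without NTC replicate 2. The annotation places a further protein-coding gene over TAP2 on the same strand, which was not matched in the table.

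TAP1 (Entrez 6890, chr6:32812986-32821593, minus strand) had 12.9, 14.2 and 18.9 CPM in NTC and 16.3 and 14.3 CPM in sgJUN#1, so that the sgJUN#1 libraries lay within the NTC range. The means were 15.3 ± 3.11 CPM (SD, n = 3) and 15.3 ± 1.41 CPM (SD, n = 2). The fitted log2 fold change was -0.0062 (SE 0.279), with an interval from -0.63 to 0.62, and its sign turned with RLE size factors (0.0041). TAP1 overlaps PSMB8-AS1, a long non-coding RNA on the opposite strand. TAP1 held 47, 35 and 85 counts in NTC and 79 and 40 in sgJUN#1, and PSMB8-AS1 held 47, 33, 83, 78 and 39. These counts differed by at most 5.71% in any library. The values of TAP1 and PSMB8-AS1 therefore cannot be told apart, and the strand setting of the counting is not stated. In its GENCODE span PSMB9 overlaps TAP1 and PSMB8 on the opposite strand as well, but its counts were below theirs in every library. The RefSeq start of PSMB9 lies beyond those of TAP1 and PSMB8, and PSMB9 runs away from both, without overlap. Which gene model was counted is not stated.

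Tapasin, the chaperone that bridges TAP and the heavy chain, overlapped between the groups. TAPBP (Entrez 6892, chr6:33267471-33282061, minus strand) had levels of 57.8, 71.6 and 103 CPM in the NTC libraries, against 78.0 and 97.3 CPM with sgJUN#1. NTC replicate 3 was the highest of the 5 libraries and NTC replicate 1 the lowest. For TAPBP the log2 estimate was 0.17 (SE 0.264), with an interval from -0.42 to 0.76 and an edgeR adjusted p-value of 0.906. It was -0.0060 without NTC replicate 1 and 0.44 without NTC replicate 3.

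Of the immunoproteasome subunits, PSMB9 had the fewest counts of the 9 genes in every library. PSMB8 (Entrez 5696, chr6:32808494-32812456, minus strand), the inducible chymotrypsin-like subunit, had 27.5, 17.1 and 22.6 CPM in NTC and 27.04 and 28.6 CPM in sgJUN#1. NTC replicate 1 lay between the sgJUN#1 libraries. PSMB8 differed by 0.30 (SE 0.259) on the log2 scale, with an interval from -0.28 to 0.88 and an edgeR adjusted p-value of 0.797. PSMB9 (Entrez 5698, chr6:32811913-32827628, plus strand), the subunit that replaces PSMB6, rested on 26, 8 and 29 counts in NTC and 28 and 23 in sgJUN#1. That is 7.15, 3.26 and 6.43 CPM against 5.78 and 8.23 CPM, with overlap. For the 8 counts of NTC replicate 2 the exact 95% Poisson interval, which covers counting error only, ran from 1.41 to 6.42 CPM. The log2 fold change of PSMB9 was 0.25 (SE 0.413), with an interval from -0.67 to 1.18, and was 0.012 without sgJUN#1 replicate 2. As a fold the interval of PSMB9 ran from 0.627 to 2.27, so these libraries do not settle whether PSMB9 rose, fell or stayed the same.

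**Figure D2:**
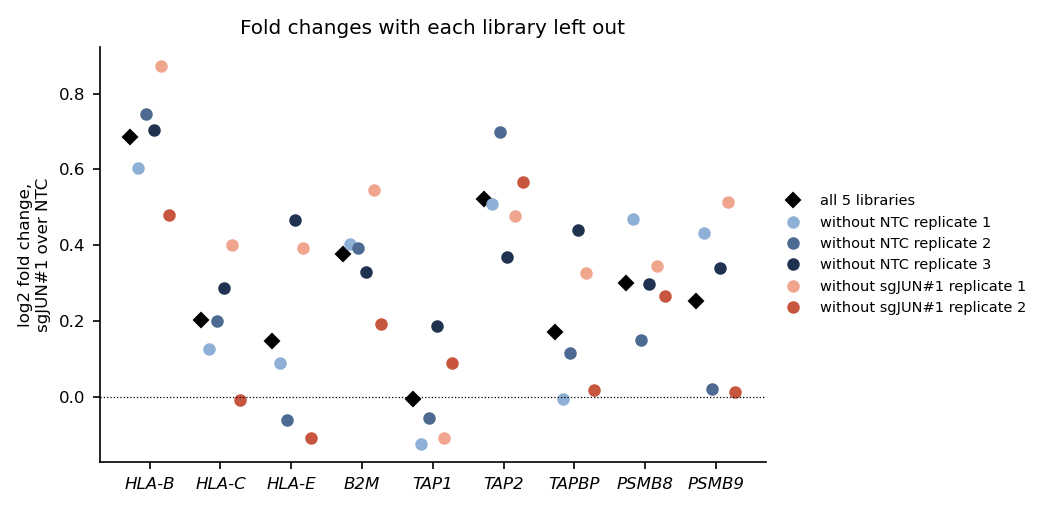
Fitted log2 fold change (sgJUN#1 over NTC) of each class I presentation gene with all 5 libraries (diamond) and with each library left out (circles). HLA-B, B2M, TAP2, PSMB8 and PSMB9 stay above 0 in all 5 of these fits, with HLA-B between 0.48 and 0.87, and the other 4 genes cross 0. For HLA-B, B2M and TAP2, whose groups do not overlap, leaving out a library could not turn the sign.

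Of the 9 genes, 3 had every sgJUN#1 value above every NTC value (HLA-B, B2M and TAP2) and 0 had every value below, against 12.2% and 12.8% of all tested genes. The sgJUN#1 libraries did not show this alike. The median of the 9 genes, as log2 CPM relative to the NTC mean of each gene, was 0.10 in sgJUN#1 replicate 1 and 0.46 in replicate 2. In NTC replicates 1, 2 and 3 it was -0.034, -0.072 and 0.16. NTC replicate 3 was thus above sgJUN#1 replicate 1 in this measure. The exact two-sided permutation test over the libraries, which cannot go below p = 0.1 here, gave 0.1 for HLA-B and for B2M, 0.2 for TAP2 and from 0.3 to 0.9 for the other 6.

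The shape of each profile over the 5 libraries was compared by the root mean square distance of log2 CPM centred on the mean of the gene. PSMB8 and PSMB9, which overlap in their GENCODE spans but not by their RefSeq starts, were each nearest to the other among the 9 genes, at 0.200. HLA-C and TAPBP were also nearest to each other, at 0.170. B2M was nearest to HLA-C (0.173), HLA-B to B2M (0.196), TAP1 to TAPBP (0.209), TAP2 to B2M (0.236) and HLA-E to PSMB9 (0.244). The gene with the widest range over libraries was PSMB9, at 1.21 on the log2 scale. The tested genes most like it were ZFP1, BEX3, SWI5, SEMA4G and CASP9, at distances from 0.0777 to 0.108.

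To ask whether the immunoproteasome subunits changed against the subunits they replace, their shares were taken within each library. PSMB8 made up 9.07%, 7.51% and 11.4% of the PSMB8 and PSMB5 counts in NTC and 8.47% and 9.94% in sgJUN#1. The share of PSMB9 against PSMB6 was 5.35%, 2.78% and 4.94% in NTC and 4.62% and 6.76% in sgJUN#1. PSMB10, the remaining inducible subunit, made up 7.61%, 9.33% and 6.78% of its pair with PSMB7 in NTC and 9.24% and 9.61% in sgJUN#1. All 3 pairs overlapped between the groups. The log2 ratios differed by -0.0077, 0.42 and 0.29 between the group means, with exact two-sided permutation p-values of 1, 0.6 and 0.3 and adjusted values over the 3 pairs of 1, 0.9 and 0.9. The constitutive subunits PSMB5, PSMB6 and PSMB7 had log2 fold changes of 0.32, -0.062 and -0.0096, with edgeR adjusted p-values of at least 0.754.

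**Figure D3:**
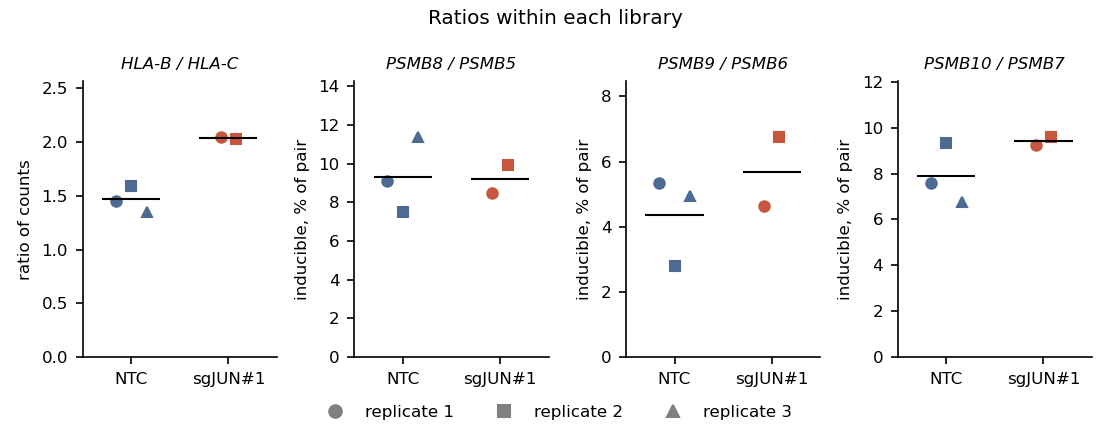
Ratios within each library, by group, with one symbol per replicate number, a line for the group mean and axes from 0. The HLA-B to HLA-C ratio of counts is 1.35 to 1.60 in NTC and 2.03 to 2.05 in sgJUN#1, whereas the share of each inducible proteasome subunit in its pair overlaps between the groups.

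HLA-G could not be read separately from its near copies. HLA-G, a heavy chain known mainly from the placenta, had 340, 235 and 431 counts in NTC and 520 and 360 in sgJUN#1. The pseudogenes HLA-H and HLA-J held almost the same numbers, within 1.70% of HLA-G in every library. The values of HLA-G and these pseudogenes therefore cannot be told apart, and whether HLA-G was expressed was not measured. HLA-F had a log2 fold change of 0.045 (SE 0.259), whose sign turned when single libraries were left out. Of the class I-like genes, MICA, MICB and MR1 were tested and had log2 fold changes of -0.17, 0.095 and 0.46, while HFE and FCGRT had too few counts.

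Of the genes that fold class I molecules and trim their peptides, 6 of 6 were tested and 0 passed. Their median log2 fold change was 0.074. The 3 largest were 0.48 for TAPBPL, a tapasin-related peptide editor, -0.39 for PDIA3, a thiol oxidoreductase of the loading complex, and 0.17 for the trimming peptidase ERAP1. Their edgeR adjusted p-values were at least 0.694. Of the 7 further proteasome genes 0 passed, with log2 fold changes from -0.15 to 0.32. The same held for 7 genes linked to class I turnover or to immune checkpoints, among which CD47 had 0.43, CD274 (PD-L1) 0.48 and SEL1L -0.15.

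Of the 16 regulators of class I transcription all were tested and 0 passed. IRF1, which binds the IRF element, had 25.03, 28.1 and 26.8 CPM in NTC and 30.1 and 37.9 CPM in sgJUN#1, which gave a log2 difference of 0.35 (SE 0.225) and an edgeR adjusted p-value of 0.737. Of the 16, 3 had both sgJUN#1 values above the NTC range, IRF1 and RFXANK among them. Both values were below it in 2, IRF9 and NFYB. Over all tested genes the shares were 12.2% above and 12.8% below. NLRC5, the class I transactivator, differed by 0.15 (SE 0.309) on the log2 scale, its interval running from -0.55 to 0.84. The largest values were -0.81 for IRF9, -0.70 for NFYB, a subunit of NF-Y, and 0.46 for RFXANK, and NFYB had the lowest adjusted p-value of the 16, 0.517.

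Interferon ligands were near or at 0. IFNG, IFNB1, IFNL1, IFNL2 and IFNL3 had no count in any library, which allows up to 0.619 to 1.22 CPM (3 counts on the TMM scale), and IFNK and IFNE held at most 4. The list of interferon receptors, their kinases and a TNF receptor had a median log2 fold change of -0.059 over 8 tested genes and 0 calls, with JAK2 at -0.36, IFNAR1 at 0.29 and that TNF receptor, TNFRSF1A, at -0.25. Of 13 interferon-stimulated genes without a role in class I presentation, 10 were tested and 0 passed, with 5 above 0 and 5 below. IFIT1 had -0.97, GBP2 0.88 and IFI27 0.87. With 1 library left out IFIT1 ran from -1.82 (without sgJUN#1 replicate 2) to -0.27 (without sgJUN#1 replicate 1) and GBP2 from 0.27 to 1.36 (without sgJUN#1 replicates 2 and 1). IFI27 rested on 5 to 27 counts and was -0.042 when sgJUN#1 replicate 1 was left out. ISG15 held 2 to 7 counts and was not tested. The 8 class II genes, which professional antigen-presenting cells express, held at most 5 counts in any library and none was tested. Over all 60 tested genes of these wider lists the median log2 fold change was 0.043, with 35 above 0, and 0 passed the edgeR threshold.

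**Figure D4:**
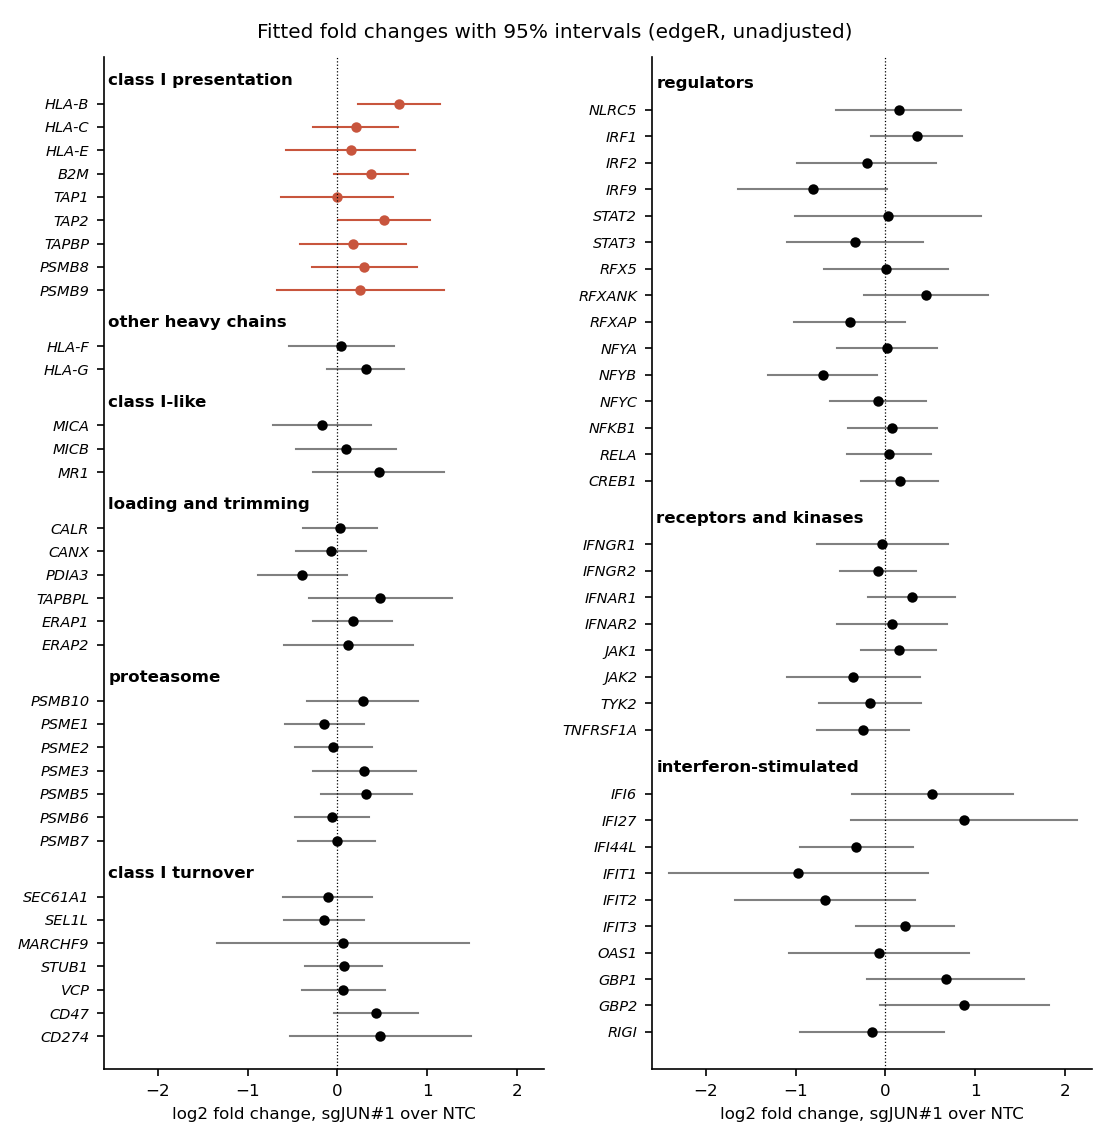
Fitted log2 fold change (sgJUN#1 over NTC, points) with unadjusted 95% intervals (lines) for the 9 class I presentation genes in red and 58 of the 60 tested genes of the wider lists in black. The intervals of HLA-B, TAP2 and NFYB leave out 0, and no gene shown passed the threshold over all tested genes.

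Of the 9 genes, 8 lie in the MHC on chromosome 6, so their neighbours were compared. Between the starts of HLA-F and TAPBP (GRCh37 chr6:29690552-33282061) the table held 167 genes, of which 95 were tested, and 0 passed the edgeR threshold. Without the 8 genes described here, 87 remained. These had a median log2 fold change of -0.071, and 41 of them (47.1%) were above 0. Of these 87, 15 had both sgJUN#1 values above the NTC range and 16 below it, against 12.2% and 12.8% of all tested genes. Some of these neighbours, such as HLA-G, HLA-H and HLA-J, had nearly equal counts and may not be independent of each other.

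**Figure D5:**
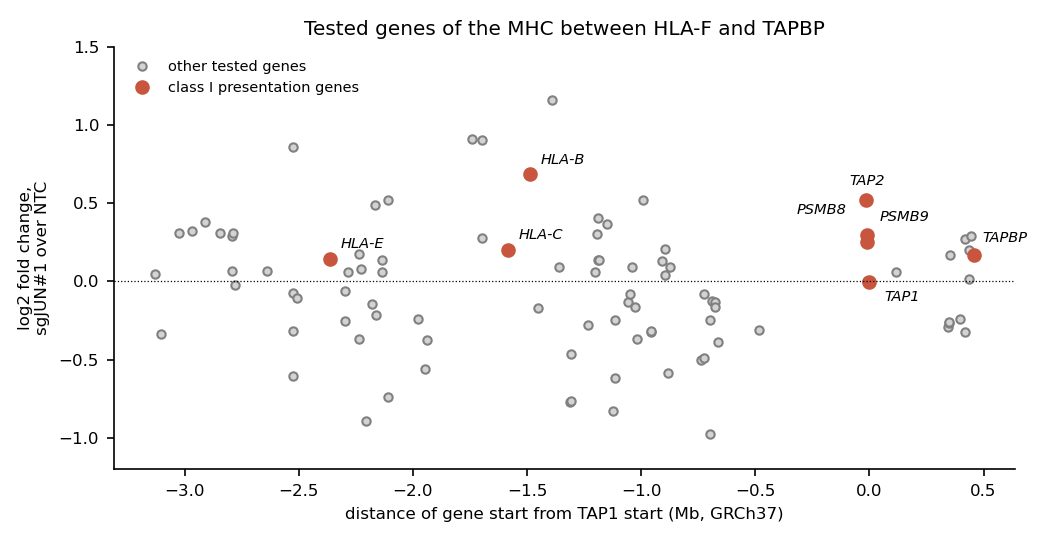
Log2 fold change (sgJUN#1 over NTC) of the 95 tested genes of the MHC between HLA-F and TAPBP, against the distance of each gene start from the start of TAP1 in Mb. Gene starts are those of the GENCODE spans, and by its RefSeq start PSMB9 lies on the other side of the TAP1 start. The 8 class I presentation genes are in red. The other 87 scatter on both sides of 0, from -0.98 to 1.16.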

How the data were processed

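RNA was measured in 5 libraries made with the QuantSeq 3′ mRNA-Seq kit (FWD), which reads near the 3′ end of transcripts. The authors deposited raw counts per gene. The submitters' processing notes name cutadapt 4.2, Bowtie2 2.3.5.1 and hg19. The study's methods describe trimming, alignment and counting with countOverlaps for its other RNA libraries, and do not say that these 3′ libraries were counted the same way. Annotation, strand handling, treatment of multiple alignments and molecular identifiers are not given in the sources used here. Intervals on counts therefore cover counting error only.

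Groups and replicate numbers came from the sample titles. Symbols came from NCBI RefSeq (GRCh38.p14, names only) for 23308 genes, positions from GENCODE v44 on GRCh37, and promoters from RefSeq. Counts were tested with edgeR 4.0.16 in R 4.3.3 (quasi-likelihood F test, robust, TMM, filterByExpr, group as the only term), which kept 13616 genes, with Benjamini-Hochberg adjustment over all of them. SE is the log2 fold change over the square root of F, and 95% intervals use the t distribution. The fit was tested on simulated data. Alternatives were DESeq2 1.42.0 (the tool of the study's RNA-seq methods), limma-voom (limma 3.58.1), other scalings and filters, a replicate block and leaving out each library. A floor of 3 counts was taken as the limit that a count of 0 allows.

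The genes and lists were chosen with earlier results of these data known. All 9 genes and JUN were named, and of each wider list the genes called and the 3 with the largest absolute log2 fold change, with IRF1, NLRC5 and the proteasome partners. Some listed genes count in their lists but are not reported here. HLA-H, HLA-J and PSMB8-AS1 were named after their counts were seen.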

Additional observations from a re-analysis of the deposited data

How the results depend on the processing

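No class I presentation gene was called in any alternative that left more than 1 library in each group. In those fits the edgeR, limma or DESeq2 adjusted p-values of HLA-B ran from 0.146 to 0.455. HLA-B, B2M, TAP2 and PSMB8 kept their sign in each of 13 alternatives. The groups of HLA-B, B2M and TAP2 do not overlap, so leaving out 1 library could not turn them, and their kept sign adds little to that. PSMB9 was not tested with at least 10 counts in every library. Its standard error of 0.413 was larger than that of 80.5% of tested genes, which limits what its counts can show. The count of called genes over all tested ones was 28, and it was 143 with DESeq2, 148 with no filter and 18 with at least 10 counts in every library. It was 10, 56 and 57 without NTC replicates 1, 2 and 3, and the cause was not tested. Pairs of libraries were also compared by the chi-square per degree of freedom of their counts, which rises as they differ more. For NTC replicate 3 this was 18.4 and 13.7 against NTC replicates 1 and 2. Between NTC replicates 1 and 2 it was 7.75, and between the sgJUN#1 libraries 7.62. JUN had a log2 fold change of 3.24 with DESeq2 (adjusted p-value 4.08e-11) and from 2.84 to 3.68 with 1 library left out.

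The median of the 9 genes ran from 0.088 to 0.40 with 1 library left out. The same fits turned HLA-C (-0.0089 to 0.40), HLA-E (-0.11 to 0.47), TAPBP (-0.0060 to 0.44), TAP1 (-0.12 to 0.19), HLA-F (-0.18 to 0.23), MICB (-0.035 to 0.22), NLRC5 (-0.026 to 0.30), PSMB7 (-0.099 to 0.079), IFI27 (-0.042 to 1.33), SEL1L (-0.34 to 0.026) and the log2 ratio of PSMB8 to PSMB5 (-0.16 to 0.16). TAP1 also turned with DESeq2 (0.0046), limma-voom (0.0060) and RLE size factors (0.0041).

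NTC and sgJUN#1 share the replicate numbers 1 and 2, and no label ties a number to a common day or batch. The library identifiers of NTC and sgJUN#1 are consecutive within each of these replicate numbers, and what this means is not stated. The difference between replicates 1 and 2 correlated over 13616 genes by r = 0.0146 between the groups, so no pairing was assumed. The replicate block left only 1 residual degree of freedom. With it 103 genes were called and 0 of the 9, JUN had 2.82 (edgeR adjusted p-value 1.15e-04), TAP1 turned to 0.18 and MICB to -0.032.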
